A study of Homo sapiens with 6 samples.

Results

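Solitary END-seq peaks far from genes are the subject here: places where DNA ends were read on 1 strand only, in stretches of the genome that hold no annotated gene. A peak counted as solitary where it overlapped a peak of the same strand in the other replicate of that treatment time and no such replicated peak of the opposite strand lay within 150 bp. It counted as far from genes where its midpoint lay over 50 kb from every annotated gene body on chromosomes 1 to 22 (hg19, 61221 genes of GENCODE 44) and at least 1 Mb from any assembly gap of 1 Mb or more. Of 172410 solitary peaks at 10 min, 14274 (8.28%) met this rule, and of 105111 at 20 min, 7176 (6.83%) did. Over both times that made 21450 of 277521.

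The study treated HCT116 cells, a human colorectal carcinoma line, with the topoisomerase I poison camptothecin (CPT) for short times. The 6 libraries of the series are 2 of untreated cells, 2 of cells given 10 µM CPT for 10 min (CPT10) and 2 of cells given 10 µM CPT for 20 min (CPT20). The sample titles print 10 and 20 as doses in µM, whereas the treatment protocol gives 1 dose for both times, and the protocol is followed here. Peak lists of the 4 treated libraries were used, and where 4 values follow each other they run from the first and second replicate of CPT10 to the first and second of CPT20. No list of untreated cells was used, so no value below is a difference from untreated cells. The study's methods call the replicates biological and list 2 experiments, each with all 3 conditions. No allele or transgene sets the groups apart, every library also received mouse pre-B cells as a spike-in, and peak positions give no marker with which the identity of the line could be checked.

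Topoisomerase I relaxes DNA by cutting 1 strand and resealing it, and CPT holds the enzyme on the cut strand. When a replication fork runs into such a complex, a single-ended double-strand break can form, with 1 DNA end and no partner facing it. END-seq ligates an adapter to DNA ends inside agarose plugs and reads into the DNA next to each end: a break with both ends shows reverse-strand reads to the left and forward-strand reads to the right of the cut, whereas a lone end shows 1 of these. A forward peak therefore belongs to an end whose DNA lies to the right, and a reverse peak to an end whose DNA lies to the left. In long gene-free stretches there is little annotated transcription, and replication forks can travel far in 1 direction.

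Sequences from the read strand of 4 strong members show the letters on either side of the place where reads began. The first 2, at loci called at both times, are shown because the same 10 letters, CTTCCGATCT, stand directly before the read start, and these are in capitals. The other 2 were called at 10 min only and at 20 min only, and their runs of at least 8 pyrimidines are in capitals. The locus on chromosome 14 is among the 14 strongest loci described below, which hold the 10 letters with up to 2 mismatches. The locus on chromosome 4 had 32.1% T and 28.2% A over its whole length, closer to balance than 20-min members as a whole. Each holds 50 bases before and 110 bases after the read start, 5′ to 3′, from GRCh37.
chr12:43240361-43240520, plus strand: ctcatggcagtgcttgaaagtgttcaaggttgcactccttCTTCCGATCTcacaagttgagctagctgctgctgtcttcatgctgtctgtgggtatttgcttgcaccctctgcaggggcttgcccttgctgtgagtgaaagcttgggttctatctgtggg
chr10:83066936-83067095, minus strand: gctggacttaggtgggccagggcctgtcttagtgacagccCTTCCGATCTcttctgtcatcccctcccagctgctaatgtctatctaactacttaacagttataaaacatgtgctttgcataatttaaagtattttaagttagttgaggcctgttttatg
chr14:62758415-62758574, minus strand: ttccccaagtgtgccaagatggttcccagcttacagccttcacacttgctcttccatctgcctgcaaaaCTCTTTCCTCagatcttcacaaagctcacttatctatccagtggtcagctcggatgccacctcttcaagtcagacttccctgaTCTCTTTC
chr4:123452112-123452271, plus strand: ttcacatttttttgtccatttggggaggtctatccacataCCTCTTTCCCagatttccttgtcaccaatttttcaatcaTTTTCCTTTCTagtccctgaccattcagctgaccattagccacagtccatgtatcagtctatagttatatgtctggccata

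Members were shallow peaks. A peak's summit height, the number of fragments stacked at its top, had a median of 11 in replicate 1 and 7 in replicate 2 for the 10-min members, and of 10 and 8 for the 20-min members. The highest percentile of members began at 29 and 16 fragments at 10 min and at 25.3 and 18 at 20 min, and the tallest member reached 336. Median widths were 361 bp at 10 min and 387 bp at 20 min. The 8 strand lists held 286491 to 826744 peaks, and the expected height under each list ran from 0.727 to 1.44 fragments. The lowest summit of a member in either replicate was 4 or 5 fragments.

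Gene deserts held almost as many solitary peaks per Mb as gene bodies at 10 min, and fewer at 20 min. The far territory covered 228.2 Mb in 2364 blocks with a median length of 57014 bp, against 1677 Mb of gene bodies and 740.3 Mb of other sequence within 50 kb of a gene. At 10 min there were 62.6 members per Mb against 66.9 solitary peaks per Mb of gene bodies, a ratio of 0.935 (95% counting interval 0.919 to 0.951). At 20 min the values were 31.5 and 42.5 per Mb, a ratio of 0.740 (0.722 to 0.758). The intervals cover counting error only, and each time gives 1 replicated set, so this comparison of times has no replicate error. Sequence outside genes but within 50 kb of one held 59.1 per Mb at 10 min and 34.2 at 20 min.

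Single libraries, counted without the replication rule, overlapped between the times in this ratio. All strand peaks of a library had a density in far territory over that in gene bodies of 0.948 and 1.01 at 10 min, and of 0.820 and 0.982 at 20 min. CPT20 replicate 1 was the lowest, and the other CPT20 library lay between the CPT10 libraries. The times differed by -0.13 on the log2 scale (exact permutation test, two-sided, p = 0.667, where 2 libraries against 2 allow no p below 0.33), and without CPT20 replicate 1 the difference was 0.0050. Within each replicate number the 20-min library had the lower log2 ratio, with changes of -0.21 for number 1 and -0.04 for number 2 (exact sign-flip test, p = 0.5, the smallest that 2 pairs allow). Across the 4 libraries the mean log2 ratio was -0.09 (exact sign-flip test, p = 0.25, smallest possible 0.13), and -0.03 without CPT20 replicate 1.

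The gap between deserts and genes widened with peak strength in every library. Among peaks whose -log10 q reached 10, a score of how far a peak rises above the level expected by chance, the density ratio of far territory to gene bodies was 0.864 and 0.801 in the CPT10 libraries and 0.580 and 0.693 in the CPT20 libraries. It was below 1 in 4 of 4 libraries (mean log2 ratio -0.46, exact sign-flip test, p = 0.13, the smallest that 4 libraries allow), and it was lower in both CPT20 libraries than in either CPT10 library (log2 difference -0.39, exact permutation test, p = 0.33, also the smallest possible). Solitary peaks built from such peaks had a ratio of 0.474 (0.400 to 0.561) at 10 min and 0.226 (0.178 to 0.288) at 20 min, from 143 and 68 members. The limit of 10 was not equally strict between libraries, since it left 73.8, 7.09, 33.6 and 4.685 far peaks per Mb. With all lists cut to the length of the shortest, the density ratios were 0.918, 1.01, 0.741 and 0.982, and the times overlapped. Median folds of the summit over the expected height gave no such contrast between deserts and genes. Far and genic medians were equal in 3 of 4 libraries and differed by -0.13 on the log2 scale in CPT20 replicate 1.

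The CPT20 replicates differed more from each other in the density of far peaks than the means of the 2 times did. They were 502.9 and 394.1 peaks per Mb in the CPT10 libraries and 381.8 and 213.3 in the CPT20 libraries. Both CPT20 libraries lay below both CPT10 libraries, with a log2 ratio of group means of -0.59 (exact permutation test, p = 0.33, the smallest possible). Without CPT20 replicate 2 the log2 ratio was -0.23, and without CPT20 replicate 1 it was -1.07. With all lists cut to the length of the shortest, the densities were 200.9, 217.2, 166.5 and 212.5 peaks per Mb, the groups overlapped and the log2 ratio was -0.14 (exact permutation test, p = 0.667). Sequencing depth of the libraries was not used here.

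Chromosomes 8, 17 and 10 stood above all others in the density of members. Chromosome 8 held 136.7 members per Mb of its far territory at 10 min and 77.9 at 20 min, chromosome 17 held 120.0 and 67.7, and chromosome 10 held 81.6 and 42.5. On the 18 chromosomes other than 8, 10, 16 and 17 the density ran from 43.8 to 61.3 at 10 min and from 22.9 to 34.5 at 20 min. HCT116 cells are known to carry extra copies of parts of the long arms of chromosomes 8, 10 and 17.

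**Figure D1:**
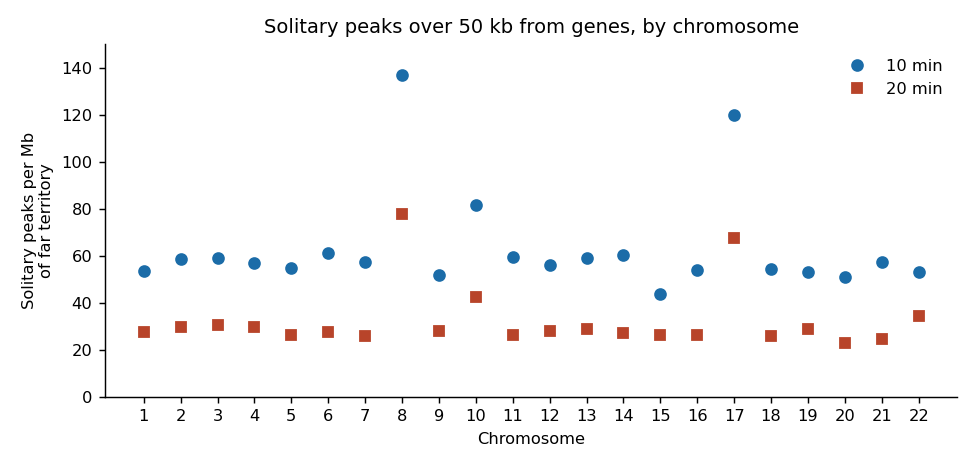
Members per Mb of far territory (vertical axis) on each of chromosomes 1 to 22 (horizontal axis), with circles for 10 min and squares for 20 min. Chromosomes 8, 17 and 10 lie highest at both times, at 136.7, 120.0 and 81.6 members per Mb at 10 min.

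The excess lay on the long arms. On the long arm of chromosome 8 there were 155 members per Mb at 10 min and 88.6 at 20 min, and on the short arm 53.4 and 28.7. The long arm of chromosome 17 held 154 and 85.8 against 37.3 and 23.1 on the short arm, where far territory spans only 0.563 Mb, and the long arm of chromosome 10 held 93.3 and 47.0 against 45.7 and 28.9. Gene bodies showed the same step, with 150 solitary peaks per Mb on the long arm of chromosome 8 at 10 min and 58.7 on its short arm. Single libraries showed it too: far peaks of any strand on the 2 arms of chromosome 8, long then short, numbered 763 and 477 per Mb in the first library, 627 and 372 in the second, 584 and 399 in the third and 394 and 203 in the fourth. The part of copy number in these values was not tested. Leaving out chromosomes 8, 10, 16 and 17 left 11273 members at 10 min and 5536 at 20 min.

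No block of far territory, which leaves out the 50 kb next to each gene, reached 1 Mb, the longest being 987135 bp on chromosome 13. A minimum of 500 kb, chosen after the values were seen, left 33 blocks, with 48.3 to 341 members per Mb over both times summed and a median of 93.9. The 2 densest lay on chromosome 8, at chr8:115854159-116370723 beside TRPS1, with 341 per Mb, and at chr8:78499527-79010335, with 305. Then came chr4:30059939-30668990 with 138 per Mb, chr5:100290664-100867533 with 135 and chr9:31695159-32243555 with 122. The sparsest were chr13:104836608-105416677 with 48.3, chr4:125683888-126186072, between ANKRD50 and FAT4, with 69.7, and chr4:10801211-11320450 with 73.2.

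The strands were not equally represented at 10 min. Of 14274 members, 5949 (41.7%, 95% Wilson interval 40.9 to 42.5) were forward at 10 min, and of 7176, 3580 (49.9%, 48.7 to 51.0) were forward at 20 min. The forward share of far peaks was 41.2% in CPT10 replicate 1 and 49.8 to 50.3% in the other 3 libraries. CPT10 replicate 1 had 826744 reverse and 591881 forward peaks in all, and the share in gene bodies, 42.4% of solitary peaks at 10 min, was low as well. The uneven strands were seen in 1 of 4 libraries, inside and outside deserts.

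Members next to each other tended to lie on the same strand. Among neighbouring members 1 to 20 kb apart in the same block, 5219 of 8993 pairs (58.0%) at 10 min and 1927 of 3171 pairs (60.8%) at 20 min shared a strand, where the strand composition alone gives 51.4% and 50%. The excess was 6.65 points (95% interval 5.63 to 7.67) at 10 min and 10.8 points (9.06 to 12.5) at 20 min. With all lists cut to the same length it was 11.6 and 11.7 points. Pairs closer than 1 kb were left out, since the rule itself removes close opposite-strand neighbours. In gene bodies the excess was 10.1 points (9.72 to 10.4) and 15.5 points (14.98 to 15.9).

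The excess of members fell with spacing, and its counting interval lay above 0 up to 100 kb. That interval treats neighbouring pairs as independent, although they share members, and holds no replicate error. At 10 min it was 9.70 points at 1 to 5 kb, 4.68 at 5 to 20 kb and 4.01 (2.11 to 5.89) at 20 to 100 kb. At 20 min it was 16.2, 7.97 and 6.04 (3.88 to 8.17) points. In gene bodies it stayed higher, at 7.20 points at 10 min and 11.8 at 20 min for the widest spacing. Neighbouring peaks of single libraries are rarely 20 to 100 kb apart: there were 10, 36, 53 and 615 such pairs, with values of -21.5, -5.56, 4.72 and 1.54 points, and all 4 intervals included 0. Every single library had an excess in far territory at 1 to 20 kb, with 2.95 and 3.58 points at 10 min and 3.46 and 5.04 at 20 min. The mean of the CPT20 libraries was 0.98 points higher, with overlapping groups (exact permutation test, p = 0.667), and without CPT20 replicate 2 the difference was 0.19 points.

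Strand runs were shared between libraries. For this, every far peak of one library was set against every far peak of another in 1-kb steps, so that no peak was compared with its own list. Pairs were not limited to 1 block. Blocks had a median length of 57014 bp, so pairs farther apart could lie in different blocks with genes between them. At 1 to 2 kb, same-strand pairs exceeded the share from strand composition by 4.43 to 6.80 points in the 6 pairs of libraries, at 10 to 20 kb by 0.86 to 2.56, at 100 to 200 kb by 0.54 to 1.57 and at 200 to 500 kb by 0.28 to 0.88. At 500 kb to 1 Mb the values lay between -0.04 and 0.07. Pairs of libraries from different times and from the same time gave overlapping curves. Gene bodies had 3.76 to 5.77 points at 1 to 2 kb, a median of 4.62 against 5.62 far from genes, and from 10 to 100 kb their medians were higher, with values of 2.73, 2.46 and 1.89 points against 1.48, 1.29 and 1.12 far from genes.

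**Figure D2:**
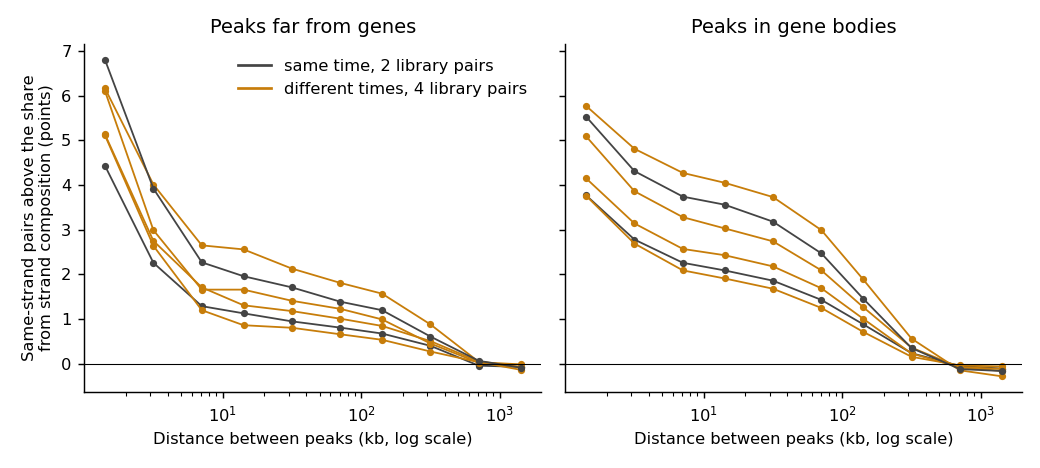
Same-strand pairs of peaks from 2 libraries, in points above the share given by strand composition (vertical axis), against their distance in kb on a log scale (horizontal axis), for peaks far from genes (left) and in gene bodies (right), each line being 1 of 6 library pairs. In both panels all lines fall towards 0 by 500 kb to 1 Mb. The 2 peaks of a pair could lie in different blocks.

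Strand balance over 100-kb windows gave the same pattern as a map. Among 1344 windows of far territory, the middle 90% of forward shares ran from 26.3 to 56.4% and from 30.8 to 70.4% in the CPT10 libraries, and from 32.1 to 67.7% and from 21.1 to 77.3% in the CPT20 libraries. Their variance was 1.66, 2.13, 1.76 and 2.22 times that of binomial counts. Across windows the shares of any 2 libraries correlated with Pearson's r of 0.507 to 0.590, as a description over neighbouring windows that share base composition and mappability. Windows in gene bodies, 10442 of them, gave 0.679 to 0.721. In 492 windows (36.6%; 240 forward and 252 reverse) all 4 libraries lay on the same side of their own median, against 52.5% of genic windows.

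Base composition followed these shares weakly. The forward share of far windows correlated with the skew of G over C on the plus strand at r of -0.238, -0.331, -0.243 and -0.317 in the 4 libraries. With the skew of T over A it correlated at 0.127, -0.081, 0.127 and -0.120, so the sign differed between libraries of the same time. GC content gave r between -0.039 and 0.005.

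The 3 far windows with the most one-sided forward shares in all 4 libraries, picked after their values were seen, were chr4:68113090-68213089, chr16:26897639-26997638 and chr4:30259939-30359938. The first held 26 forward and 14 reverse peaks, then 28 and 4, at 10 min, and 27 and 7, then 19 and 1, at 20 min. The most one-sided reverse windows were chr6:145401124-145501123, chr18:68368190-68468189 and chr10:130168479-130268478. The window on chromosome 6 had a forward share of 20.5%, 20.0%, 26.3% and 14.3% in the same order of libraries. That all 4 lay on the reverse side follows from how it was picked. No gene body overlaps any of these windows, and the nearest to the windows on chromosome 4 are 69.9 and 250 kb away.

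Runs of members on 1 strand varied widely in length. At 10 min there were 524 runs of at least 5 members, holding 3528 members, and 61 of at least 10. At 20 min there were 197 and 23, with 1348 members in runs of at least 5. These counts were not set against the number that strand composition gives, nor against runs in gene bodies. Alone they do not show an excess of long runs. The longest at 10 min were 23 reverse members over 144418 bp at chr10:130302464-130446881, 21 reverse members over 221101 bp at chr6:145322158-145543258, and 19 forward members over 185701 bp at chr4:30239698-30425398. The longest at 20 min were 29 forward members over 510690 bp at chr4:30065453-30576142, 21 forward members over 89436 bp at chr8:98496225-98585660, and 18 forward members over 208884 bp at chr8:140213286-140422169. A run is longer where members are denser, and 3 of these 6 lie on chromosomes 8 and 10.

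The block on chromosome 4 and the run on chromosome 6 were one-sided at both times. Both were named above for a long run and a one-sided window in these same libraries, so their shares follow partly from that choice. Over the 609.1 kb of chr4:30059939-30668990, 40 of 45 members at 10 min and 37 of 39 at 20 min were forward. All peaks of single libraries gave forward shares of 62.8% of 298 and 77.4% of 287 at 10 min, and 75.9% of 261 and 87.2% of 156 at 20 min. In the reverse block of 266.6 kb on chromosome 6 these shares were 23.5%, 25.2%, 29.5% and 12.5%. The run on chromosome 10 was less even between libraries, with forward shares of 25.2%, 41.7%, 42.5% and 37.5%.

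**Figure D3:**
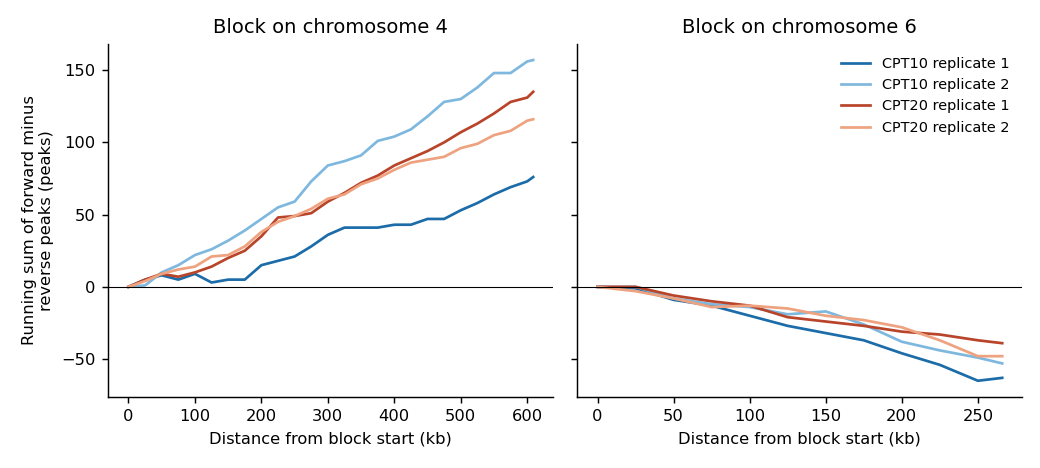
Running sum of forward minus reverse peaks (vertical axis) against the distance in kb from the start of a block of far territory (horizontal axis), for the block on chromosome 4 (left, 609.1 kb) and that on chromosome 6 (right, 266.6 kb), 1 line per library. In all 4 libraries the sum climbs along the first block and falls along the second. Both blocks were picked for one-sided strands in these same libraries.

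Few members returned at the other time at the same place, and most that did lay on the same strand. Of the 10-min members, 818 (5.73%, 95% Wilson interval 5.36 to 6.12) overlapped a replicated peak of the same strand at 20 min, and 103 (0.722%, 0.595 to 0.874) one of the opposite strand. Of the 20-min members, 827 (11.5%, 10.8 to 12.3) overlapped a same-strand peak at 10 min and 115 (1.60%, 1.34 to 1.92) an opposite one. Over all solitary peaks the same-strand shares were 8.86% from 10 to 20 min and 14.1% from 20 to 10 min, and the opposite-strand shares 1.94% and 3.02%. The members' shares lay below these, and their intervals below those of gene bodies, with 9.70% (9.52 to 9.87) and 14.7% (14.4 to 14.9), although each share is 1 value with no replicate error. The larger share from 20 to 10 min goes with the longer lists at 10 min. Low overlap was not particular to the other time. Of far peaks of CPT10 replicate 1, 13% overlapped a same-strand peak in CPT10 replicate 2 and 15.1% one in CPT20 replicate 1. For CPT20 replicate 1 the shares were 8.44% in CPT20 replicate 2, and 19.7% and 13.9% in the CPT10 libraries. For CPT10 replicate 2 the same-time share was the higher, at 16.6% against 13.5% and 8.21%.

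**Figure D4:**
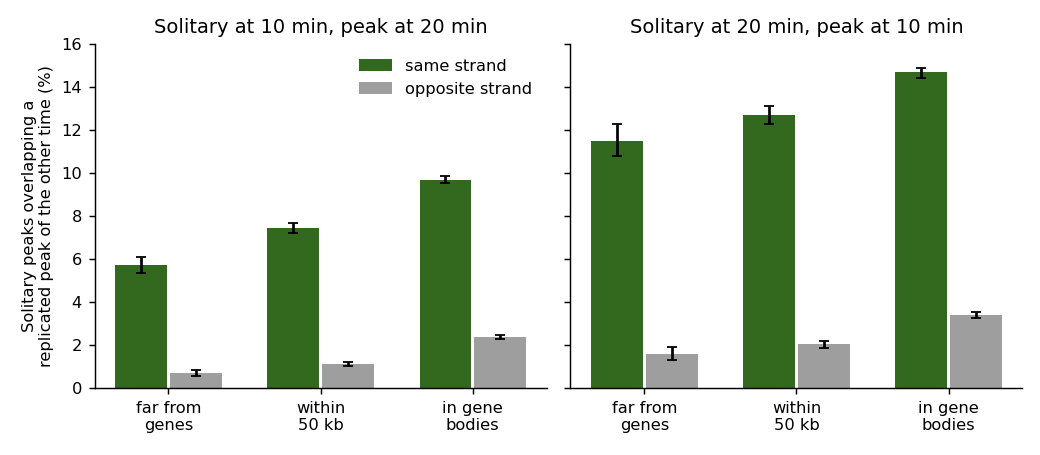
Share of solitary peaks (vertical axis, percent, from 0) that overlapped a replicated peak of the other time on the same strand (dark bars) or the opposite strand (grey bars), by territory, with 95% Wilson intervals, for peaks solitary at 10 min (left) and at 20 min (right). Peaks far from genes recurred least in both panels, at 5.73% and 11.5% on the same strand.

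Single libraries of the other time held more of the members. Of the 10-min members, 25.1% overlapped a same-strand peak in CPT20 replicate 1, 16.6% one in CPT20 replicate 2 and 64.4% in neither, against 31.7%, 18.4% and 58.9% of all solitary peaks at 10 min. Of the 20-min members, 34.6% overlapped one in CPT10 replicate 1, 27.2% one in CPT10 replicate 2 and 50.6% in neither, against 39.4%, 29.1% and 46.7% of all solitary peaks at 20 min. The rule had removed close opposite-strand peaks of the same time, so strands were also compared over all far peaks of single libraries, which no such rule had touched. Between libraries of different times, a far peak overlapped a same-strand peak 1.87 to 2.00 times as often as an opposite-strand peak, against 1.68 to 1.94 times in gene bodies. CPT10 replicate 1 against CPT20 replicate 1, for instance, gave 15.1% and 7.69%. The pairs of the same time, whose overlaps define the members, gave 1.69 for the CPT10 libraries and 2.04 for the CPT20 libraries. For replicate 1 against 2 the shares were 13% and 7.69% at 10 min, and 8.44% and 4.14% at 20 min. Same-strand overlap of 2 replicates, on which membership rests, thus stood beside a sizeable opposite-strand overlap. Without chromosomes 8, 10, 16 and 17 the recurrence of members was 4.33% and 9.07%, and the ratio between libraries changed little, with 1.89 to 2.02.

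Joined over both times, the members made 20632 loci, of which 827 were replicated at both times, 13456 at 10 min only and 6349 at 20 min only. Libraries of the same time also shared few far peaks, so these classes do not by themselves show a change over time. Some loci of 1 time had a peak in a single library of the other time: 2834 (21.1%) of the loci of 10 min only had one in CPT20 replicate 1 and 1641 (12.2%) in CPT20 replicate 2. Of all solitary peaks at 10 min, including those replicated at both times, 31.7% and 18.4% had one. Opposite-strand peaks of these libraries overlapped 8.06% and 5.27% of all 10-min members, and 12.8% and 5.90% of all solitary peaks at 10 min. Summit heights hardly separated the classes, with medians of 14 and 8 fragments in CPT10 replicates 1 and 2 for loci of both times and 11 and 7 for loci of 10 min only.

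Loci were ranked by their poorest rank of -log10 q over the libraries that define their class, which put a forward locus at chr12:43240264-43240772 first among those of both times. Its summits were 336 and 187 fragments at 10 min and 210 and 106 at 20 min. The nearest gene on the left is the long non-coding RNA LINC02450, 129.6 kb away, and on the right a pseudogene at 83.1 kb. A reverse locus at chr10:83066854-83067188 followed, with summits of 131, 115, 107 and 47 fragments, between a microRNA gene 162.5 kb away and a long non-coding RNA 563.5 kb away. Then came a forward locus at chr1:217533645-217533971, with 114, 119, 71 and 31, between the nuclear receptor gene ESRRG and GPATCH2, 222.7 and 66.5 kb away. The 4th and 5th were forward loci at chr2:36191647-36192022 with 98, 72, 89 and 55 fragments, between pseudogenes at 241.6 and 334.7 kb, and at chr6:23193560-23193869 with 110, 65, 36 and 46, between a small nuclear RNA gene at 68.4 kb and a long non-coding RNA at 144.2 kb. In all 5 loci both CPT10 libraries stood above CPT20 replicate 2, and only on chromosome 6 did that library exceed CPT20 replicate 1.

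Of the loci of 10 min only, the first was a reverse one at chr11:114649961-114650208, 72.3 kb from NXPE2, with 110 and 64 fragments in the CPT10 libraries, no peak in CPT20 replicate 1 and 48 in CPT20 replicate 2. Reverse loci at chr14:62758338-62758524 and chr3:109986351-109986502 followed, with 83 and 63 and with 106 and 61 fragments. Both had a peak in CPT20 replicate 1, of 33 and 45 fragments, and none in CPT20 replicate 2. Of the loci of 20 min only, a reverse locus at chr2:83659620-83659830 had 59 fragments in each CPT20 library but 160 in CPT10 replicate 2 and no peak in CPT10 replicate 1. A forward locus at chr4:123452162-123452501 lay between the cytokine genes IL2 and IL21, 74.5 and 78.9 kb away, with 33 and 21 fragments at 20 min, 11 in CPT10 replicate 1 and no peak in CPT10 replicate 2. The reverse locus at chr7:41446766-41447365, 259.7 kb from INHBA, which encodes an activin subunit, had 27 and 20 fragments at 20 min and 9 in CPT10 replicate 2. None of these strongest loci of 1 time was absent from both libraries of the other.

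Among the 14 strongest loci, with a -log10 q of at least 20 in every library of their class, a short sequence recurred. A count of all 8-letter words over them, made after the loci were seen, led to the run CTTCCGATCT, which 7 of 14 held on the read strand and 0 of 14 on the other. The run was picked from these same loci, so its counts in them are a description and no test. With up to 2 mismatches all 14 held it on the read strand and 2 on the other, against 28.8% and 8.33% of the 132 loci with a score from 10 to 20 and 17% and 7.60% of the 20486 loci below 10. In 17 of 25 library peaks at the 7 exact loci the peak began at the base after this run, as in the sequences from chromosomes 12 and 10 above. Of the 132 loci none held it exactly, and of the 20486, 3 did on the read strand and 2 on the other. Over all solitary peaks in the genome 0.0461% held it on the read strand. The same letters close the standard Illumina sequencing adapter, whose part in these 14 loci was not tested. They are 14 of 20632 loci, and whether looser matches play a part in the others was not tested.

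Members were rich in T on the strand that was read. At 10 min T made up 36.9% and A 27.1% of the read strand, a difference of 9.87 points, and at 20 min 37.3% and 26.3%, a difference of 10.99. On the plus strand of all far territory T and A were 31.2% and 31.3%. More T than A was found in 18072 of 21450 members (84.3%), and in 80.3% of all solitary peaks of the genome. Since reads from either strand were turned to run away from the DNA end, forward members were T-rich on the plus strand and reverse members on the minus strand.

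All 4 libraries showed it without the replication rule, more far from genes than within them. T exceeded A by 6.20 and 5.34 points in far peaks at 10 min and by 6.75 and 6.45 at 20 min, against 4.77, 4.38, 5.04 and 5.07 points in gene bodies. The difference between territories averaged 1.37 points and was positive in 4 of 4 libraries (exact sign-flip test, p = 0.13, the smallest possible). Between times the means were 5.77 ± 0.607 (SD, n = 2) at 10 min and 6.60 ± 0.214 at 20 min (exact permutation test, p = 0.33, the smallest possible). GC content was 36.0% in members at 10 min and 36.3% at 20 min, below the 37.4% of far territory, although single libraries ranged from 36.3 to 38.3%.

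The T excess was centred on the peak and grew with its score. In 300-bp windows it was 9.86 points at the midpoint of 10-min members, 4.21 and 4.46 at 500 bp on either side, and 0.21 and 0.38 at 5 kb. At 20 min it was 11.1, then 4.95 and 5.34, then 0.10 and 0.40. Members whose lower -log10 q lay under 3 had 8.62 points at 10 min and 9.59 at 20 min, and those from 8 to 12 had 13.7 and 15.2, with more T than A in 93.0% and 94.7% of them. The 52 and 31 members above 12, which include the loci with the shared run, were lower again, at 10.6 and 12.1.

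**Figure D5:**
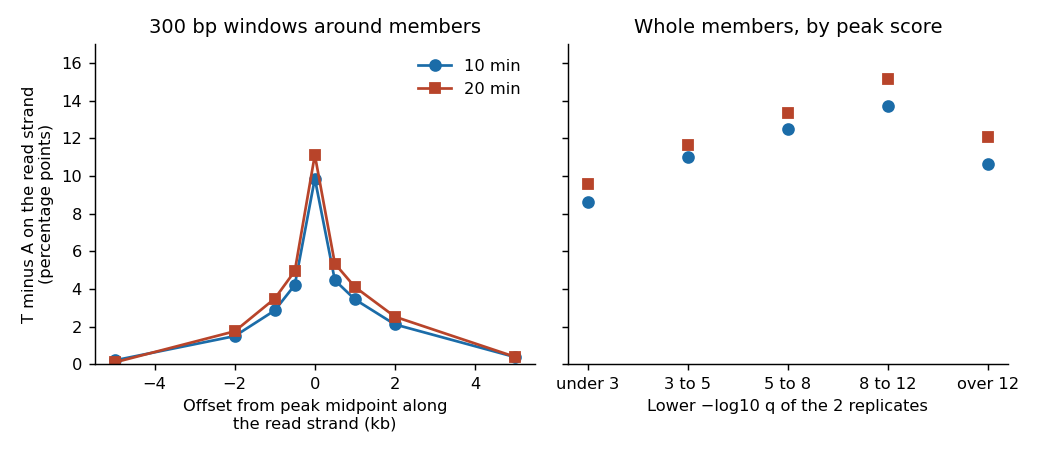
T minus A on the read strand in percentage points (vertical axes), for 300-bp windows at offsets in kb from the midpoint of members (left) and for whole members grouped by the lower -log10 q of their 2 replicates (right), circles for 10 min and squares for 20 min. The excess peaks at the midpoint, at 9.86 and 11.1 points, and rises with the score up to the group from 8 to 12.

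Around the outer edge of far peaks, where reads began, the bases departed from the background letter by letter. Across the 4 libraries T stood at 42.8 to 47.3% at the 4th base before the edge and at 43.8 to 46.5% at the last base before it, against 33.95 to 35.2% at 20 bases before. G was down to 8.90 to 10.1% at the last base before the edge. Just inside, A made up 17.3 to 20.0% of the first base and 12.3 to 17% of the second, and G 25.2 to 29.1% of the second. Peaks in gene bodies showed the same pattern, with T at 38.5 to 43.65% at the 4th base before the edge and G at 9.53 to 10.8% at the last. A peak edge is set by its outermost read, so these shares mix the true first base of reads with others.

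Words of 8 letters showed the same tilt. TTTTCTTT stood on the read strand of 2704 of 14274 members (18.9%) at 10 min and on the other strand of 603 (4.22%), and at 20 min on 1527 of 7176 (21.3%) and 265 (3.69%). TTTCTTTT, which overlaps it, gave 18.4 and 3.68% at 10 min. Both words led a ranking made over these same members, so their counts are a description and no test. Their share over all solitary peaks is not given, so they are not shown to be particular to members. Plain runs did not exceed the background: a run of 10 T was held by 3.03% of 300-bp member windows at 10 min and 3.12% at 20 min, against 3.58% of 759334 windows that tile far territory. A run of 10 A on the read strand, at 0.624% and 0.418%, was rarer than in those windows, where it reached 3.63%.

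Other simple sequences followed the strand as well. Clusters of 4 runs of at least 3 C spaced by 1 to 7 bases stood on the read strand of 1.31% of members at 10 min and 1.49% at 20 min, and the matching clusters of G on 0.273% and 0.209%, where tiled windows held 0.870% and 0.883%. Such G clusters can fold into four-stranded structures on the strand that carries them. Repeats of CA, TG or AT, 6 units long, were held by 0.441 to 0.757% of members for each repeat and time, below the 0.781 to 0.893% of tiled windows. The telomere repeat TTAGGG in 2 copies was found in 0 of 14274 and 0 of 7176 members on either strand, which with a Wilson interval allows up to 0.0269% and 0.0535%, and in 0.0028% of tiled windows. Members without any CG made up 28.0% at 10 min and 26.7% at 20 min, against 24.0% of windows. A match is a description of letters in a window, and reads need unique mapping to give a peak, so simple repeats are less visible in these lists.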

How the data were processed

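END-seq libraries of HCT116 cells were made and processed by the authors. Per the labels and the study's methods, DNA ends were ligated to an adapter in agarose plugs, sheared, captured and amplified, reads were trimmed with Trim Galore, aligned to hg19 with Bowtie2, filtered to properly paired reads (mapping quality 30 or more) without removing duplicates, and peaks were called with MACS2 for each replicate and strand at a q of 0.05 with a control and 1 constant background per list. The deposited lists give each peak's position, summit, fold over the expected height, p-value and q-value on the −log10 scale, and a score that equals 10 times the −log10 q rounded down. Folds deposited by the authors turned into whole fragment heights in 100% of peaks with folds below 50 (tolerance 0.05 fragments).

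Solitary peaks, territories (genic, within 50 kb, far) and all shares were computed with Python 3, NumPy and SciPy, with gene bodies and sequence from GENCODE 44 and GRCh37, which is hg19 on these chromosomes. Overlap means at least 1 bp. Members pooled both replicates of a time, so they give 1 value per time with 95% Wilson intervals that cover counting error only, and tests used single libraries. Those were two-sided exact permutation tests of 2 libraries against 2 and exact sign-flip tests over 4. Neighbour functions were tested on simulated data. The members, lists and tests were chosen with earlier results of these data known. Loci named are the 5, 3 and 3 best by their poorest rank in each class, the 3 longest runs per time, and the 5 densest and 3 sparsest blocks of at least 500 kb. Alternatives were stricter scores, lists of equal length, other gene distances, protein-coding genes alone, a reciprocal overlap of 0.5, a wider solitary distance, fewer chromosomes, other spacings, single libraries left out and a replicate block. Untreated libraries and read depths were not used here.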

Additional observations from a re-analysis of the deposited data

How the results depend on the processing

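Of 185 values recomputed under alternatives for 18 results, 129 were labelled the same, 55 moved and 1 reversed. For results with a test over single libraries, the same meant only that the direction did not reverse, whatever the size of the change. Far density with lists of equal length, at -0.14 against -0.59 on the log2 scale, was among these. For the other results it meant within the counting or replicate error. The cause of these changes was not tested unless stated. The reversal was the 20 against 10 min log2 difference in the far over genic density ratio of single libraries, which ran from -0.26 to 0.0050 when single libraries were left out.

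The far over genic ratio of solitary density stayed below 1 under all alternatives. At 10 min it was 0.906 with a -log10 q of at least 3, 0.474 at 10, 0.879 with lists of equal length, 0.912 over 20 kb and 0.959 over 100 kb from genes, 0.866 with protein-coding genes alone, 0.906 with a reciprocal overlap of 0.5 and 0.954 with a solitary distance of 1000 bp. At 20 min the values were 0.661, 0.226, 0.647 for the score limits and equal lists, 0.695 with protein-coding genes, 0.705 with the reciprocal overlap and 0.774 with 1000 bp.

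The forward share at 10 min was 44.1% and 44.8% at the 2 score limits, 47.1% with lists of equal length, 40.4% over 100 kb from genes and 42.7% with the reciprocal overlap. At 20 min it was 42.6% at a -log10 q of at least 10, from 68 members.

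Neighbour excess at 10 min was 11.2 and 11.95 points at the score limits, the latter with an interval from -19.98 to 35.8, 11.6 with lists of equal length, 7.85 with 1000 bp and 4.01 at spacings of 20 to 100 kb. At 20 min it was 6.06 points at the higher limit (-26.0 to 33.1), 13.3 over 20 kb and 7.33 over 100 kb from genes, 13.4 with protein-coding genes and 6.04 at 20 to 100 kb. The 20 against 10 min difference over single libraries was 16.7 points at 20 to 100 kb, where CPT10 replicate 1 had 10 pairs.

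Recurrence of 10-min members was 6.99% at the higher score limit, 6.18% with protein-coding genes, 1.68% with the reciprocal overlap and 4.33% without chromosomes 8, 10, 16 and 17. For 20-min members it was 8.73% and 17.6% at the score limits, 7.25% with lists of equal length, 3.26% with the reciprocal overlap and 9.07% without those chromosomes. The log2 ratio of same over opposite strand overlap, 0.96 as reported, was 1.39 and 2.10 at the limits, 1.43 with lists of equal length and 1.158 with the reciprocal overlap.

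GC content minus that of far territory, -1.43 points at 10 min, was -3.45 at the higher limit and -2.40 with lists of equal length. The T excess, whose alternatives were chosen after seeing the data, was 11.5 and 12.8 points at the limits and 12 with lists of equal length at 10 min. At 20 min these were 12.2, 12.3 and 12, with 10.6 and 11.7 over 20 and 100 kb from genes, 10.3 with protein-coding genes and 11.4 with the reciprocal overlap.

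Groups share replicate numbers. With the replicate number as a block, the 20 against 10 min values were -0.64 (log2 far density), -0.13 (log2 density ratio) and 0.98 points (neighbour excess), each with an exact sign-flip p of 0.5, the smallest 2 pairs allow. With so few libraries, neither the blocked nor the unblocked test could give a small p. Differences between replicates 1 and 2 correlated between the times at r = 0.044 for peaks per far window and r = 0.172 for their forward share. The study lists 2 experiments with all conditions in each, but the labels do not tie them to the replicate numbers, so pairing was kept as an alternative. Members need both replicates of a time, so none could be recomputed with a library left out.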
